A study of Mus musculus with 42 samples.

Results

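Iron handling in the liver was described through 10 genes taken by symbol from the 54446 genes of the deposited count table. These were the hepcidin genes Hamp and Hamp2, the transferrin receptors Tfrc and Tfr2, transferrin (Trf), the ferritin subunits Fth1 and Ftl1, the iron exporter ferroportin (Slc40a1), the signal Bmp6 and the heme-degrading enzyme Hmox1. All livers came from female APOE*3-Leiden mice, which carry a human APOE*3-Leiden transgene, and were taken at 32 weeks. There were 10 mice on maintenance chow (Chow32w), 16 on a Western-type diet (WTD32w) and 16 on the same diet with atorvastatin (WTD&Atorvastatin32w), and each mouse gave 1 library. The WTD held 15% cocoa butter, 40.5% sucrose and 1% cholesterol, with 0.05% sodium cholate added from week 22. WTD feeding began at 8 to 14 weeks of age with a run-in of 3 weeks, after which the mice were divided into matched groups. Study weeks, the 32 weeks included, are counted from that division, so they are not ages and leave out the run-in. Mice were housed in groups, and which mice shared a cage is not given in the sources used here. Atorvastatin, an inhibitor of HMG-CoA reductase, was then mixed into the diet at 3.0 mg/kg/day and raised at week 5 to 4.5 mg/kg/day. The promoter that drives the transgene and the iron content of the diets are not given in the sources used here, and the ages of the chow-fed mice are likewise not given.

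Hepcidin is a peptide hormone made by hepatocytes that binds ferroportin, the exporter that releases iron from cells, and causes its degradation. Its gene is switched on by BMP ligands from sinusoidal endothelial cells through SMAD proteins, and by interleukin 6 through STAT3. TFR2 and HFE act as sensors of transferrin iron, and hemojuvelin is a BMP co-receptor. Ferritin and transferrin receptor 1 are controlled mainly after transcription, by iron regulatory proteins that bind iron-responsive elements of their mRNAs. Transcript levels alone do not give the amount of ferritin, receptor or hepcidin peptide.

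The proximal promoters of both hepcidin genes are shown because they differ at a known control site of hepcidin. They lie on the minus strand of chromosome 7 in the GRCm38.p6 build, and the sequences are those of RefSeq. The Hamp window is chr7:30944030-30944279 and the Hamp2 window is chr7:30924182-30924431, each being the 250 bases before the transcription start, written 5′ to 3′. Capitals mark matches to GGCGCC, the core of the BMP-responsive element, and to TTCNNNGAA, the STAT site.
Hamp: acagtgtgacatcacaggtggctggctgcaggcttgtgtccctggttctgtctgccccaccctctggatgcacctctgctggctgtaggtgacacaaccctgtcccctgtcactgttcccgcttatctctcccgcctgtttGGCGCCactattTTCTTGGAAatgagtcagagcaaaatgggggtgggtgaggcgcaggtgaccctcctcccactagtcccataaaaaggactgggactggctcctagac
Hamp2: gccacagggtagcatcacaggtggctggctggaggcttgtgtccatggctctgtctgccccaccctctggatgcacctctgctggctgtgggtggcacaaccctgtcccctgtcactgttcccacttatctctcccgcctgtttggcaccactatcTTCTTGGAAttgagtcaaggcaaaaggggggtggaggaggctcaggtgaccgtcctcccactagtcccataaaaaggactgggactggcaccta
Hamp held GGCGCC 109 to 104 bases before its start and TTCTTGGAA 97 to 89 bases before it. Hamp2 held the STAT match 94 to 86 bases before its start, while the bases aligned with the BMP core differed by G4A, counted from 1 at the first base of the Hamp core. The windows aligned with 227 identical bases, 20 mismatches and 6 gap bases, an identity of 91.9% over the aligned bases. On both strands, GGCGCC was found in 9.59% and TTCNNNGAA in 7.02% of 32851 RefSeq promoter windows of the same length. A promoter was found for 7 of the 10 genes. Among the others of these, Tfrc also held GGCGCC and Bmp6 held the E-box CACGTG, which 6.02% of windows held. A match describes the letters and does not show that a factor binds.

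The iron-responsive elements are shown because they mark members that iron regulatory proteins can control after transcription. A search of annotated GENCODE vM21 transcripts for a bulged C followed by 5 bases, the loop start CAGTG and a stem of 5 base pairs found the pattern in UTRs of 0.562% of 21901 genes. It was present in the 5′ UTR of Fth1 (chr19:9982733-9982760, plus strand), Ftl1 (chr7:45459779-45459806, minus strand) and Slc40a1 (chr1:45925465-45925492, minus strand). The 3′ UTR of Tfrc held 4 copies, of which the first is at chr16:32631220-32631247 (plus strand). These coordinates are of GRCm38, and capitals mark the 6-base loop.
Fth1: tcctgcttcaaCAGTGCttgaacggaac
Ftl1: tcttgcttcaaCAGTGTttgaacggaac
Slc40a1: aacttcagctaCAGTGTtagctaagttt
Tfrc: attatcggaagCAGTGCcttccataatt

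Of the 10 genes, 9 passed the filter on low counts and were tested among 15574 genes. Levels are CPM, the counts of a gene relative to the library total after TMM scaling, and fold changes come from the edgeR quasi-likelihood fit over all 42 mice. A gene was called at an adjusted p (Benjamini-Hochberg, over all 15574 genes) under 0.01. Libraries held 15661381 to 36224054 counts on genes. In 8 libraries (Chow32w replicates 2, 5 and 6, WTD32w replicates 8, 9, 10 and 16, and WTD&Atorvastatin32w replicate 8) over 20% of genes at 1 to 2 CPM had no count. Many of the results, though not all, are therefore also given without them. Nothing in the labels names a batch. All chow-fed mice have mouse labels that begin with AZ#, and all WTD-fed mice, treated or not, have labels that begin with Gen#. What these prefixes stand for is not given, and a difference tied to them cannot be told apart from diet. In whole liver, fewer cells of a type and less RNA per cell cannot be told apart.

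On WTD, 4 of the 9 tested genes were called, where 33.5% of all tested genes were. Slc40a1 and Hmox1 rose, and Hamp and Tfr2 fell, against a background of 17.5% of genes called higher and 16.0% called lower. Atorvastatin against WTD changed 4 of 9, where 7.10% of all tested genes were called. Hamp, Hamp2 and Tfr2 rose (background 4.84%) and Fth1 fell (background 2.26%). Against chow, 5 of 9 differed in atorvastatin-treated mice, where 25.0% of all tested genes did. Slc40a1 and Hmox1 were higher (background 14.2%) and Hamp, Tfr2 and Fth1 were lower (background 10.7%). The comparisons share the WTD-fed or the chow-fed mice, so they are not independent of each other.

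**Figure D1:**
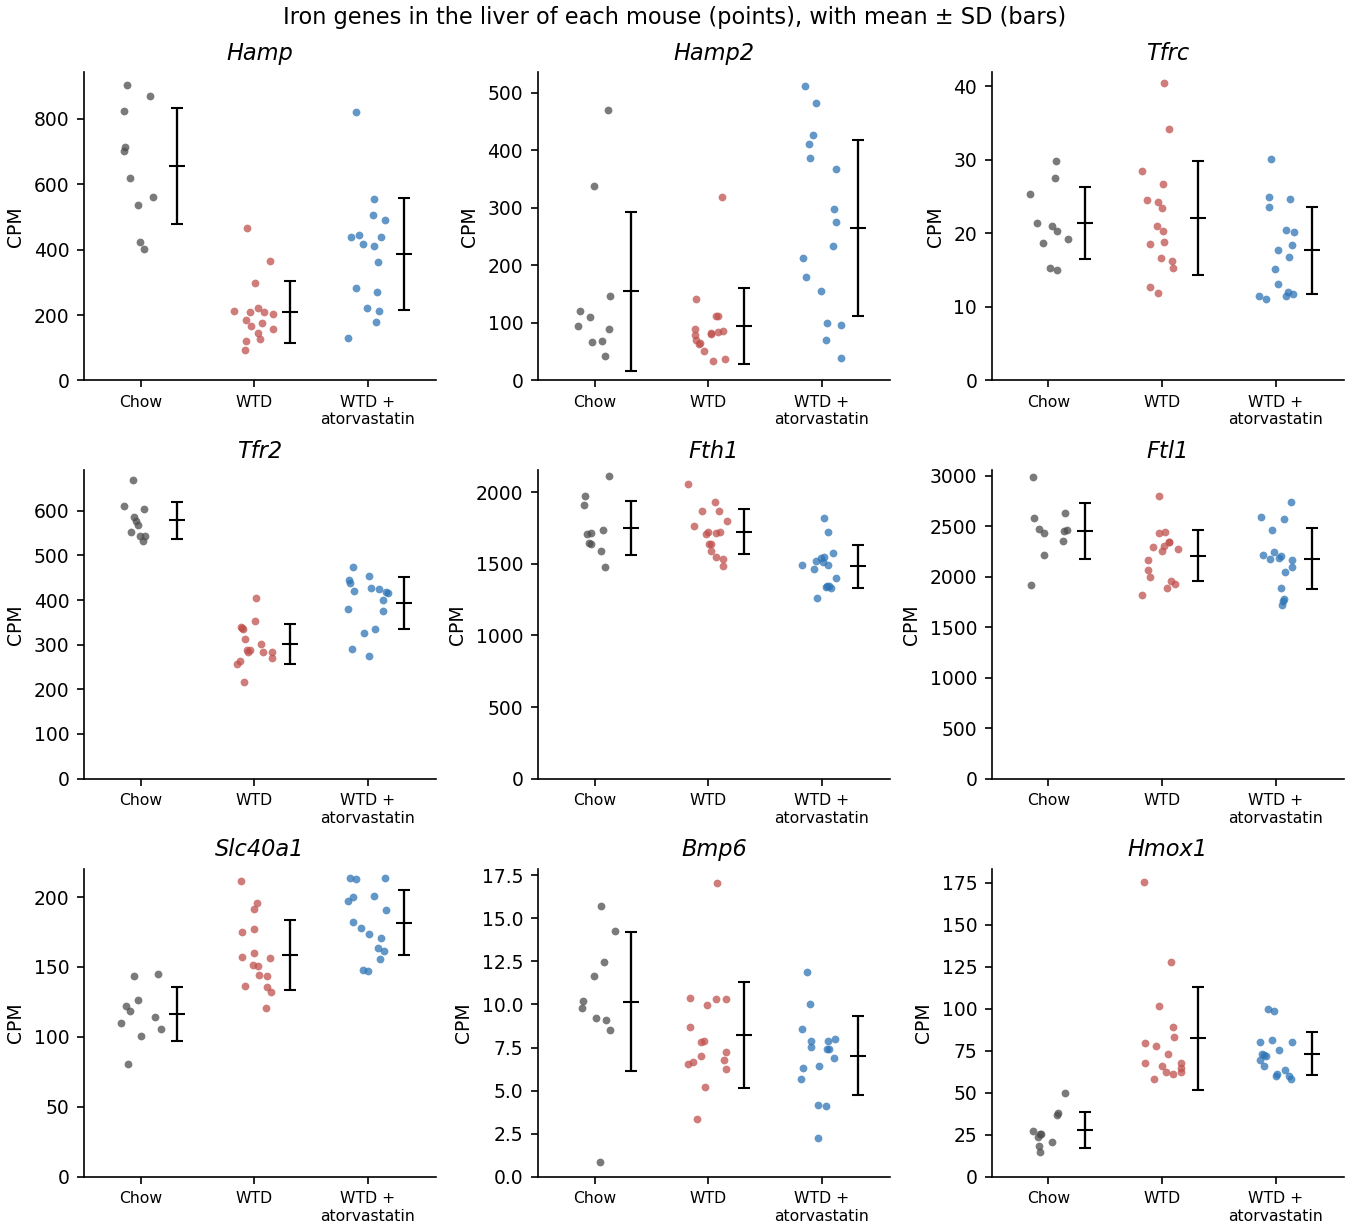
CPM of the 9 tested iron genes (y axis, linear from 0) in each mouse (points) of the chow, WTD and WTD with atorvastatin groups, with mean ± SD as bars (n = 10, 16 and 16). Tfr2 and Hmox1 of WTD-fed mice lie wholly apart from those of chow-fed mice, while Tfrc, Ftl1 and Bmp6 overlap throughout.

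Hamp, the main hepcidin gene (ENSMUSG00000050440, chr7:30942368-30944032), fell on WTD and rose with atorvastatin. It ranged from 401 to 902 CPM on chow (median 661), from 94.5 to 465 on WTD (median 194) and from 131 to 821 with atorvastatin (median 414). Of the WTD-fed mice, 15 of 16 were below every chow-fed mouse, and of the treated mice 4 were above every WTD-fed mouse and 7 below every chow-fed mouse. The group means were 655 ± 177 CPM on chow (SD, n = 10), 210 ± 95.1 on WTD and 387 ± 172 with atorvastatin (n = 16 each). Hamp was lower on WTD by a log2 fold change of -1.64 ± 0.23 (SE, edgeR with Benjamini-Hochberg, adjusted p = 1.5e-07), a 3.13-fold decrease. Atorvastatin raised it by 0.88 ± 0.21 (edgeR, adjusted p = 0.0028), and 14 of 16 treated mice were above the WTD median. The shift was not uniform, as treated replicates 1, 2, 3 and 4 were the lowest, at 223, 211, 131 and 180 CPM. On WTD, replicates 14 and 15 were the highest, at 465 and 365 CPM. With atorvastatin Hamp remained lower than on chow by -0.76 ± 0.23 (edgeR, adjusted p = 0.0087).

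The fall of Hamp on WTD was called in the 10 alternative fits and in all 42 fits that each left out 1 mouse. The rise with atorvastatin was not called without the 8 libraries that lacked weak genes, where the log2 fold change was 0.79 (adjusted p = 0.034 by edgeR). The difference from chow in treated mice was called in 27 of 42 fits that each left out 1 mouse, with adjusted p up to 0.021. It was lost without Chow32w replicate 1, 2, 5, 8, 9 or 10, or without WTD&Atorvastatin32w replicate 1, 2, 3, 4, 5, 12, 13, 14 or 16. Without the 8 libraries it was -0.82 (adjusted p = 0.021 by edgeR).

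Hamp2, the second hepcidin gene of mice (ENSMUSG00000056978, chr7:30922372-30924681), varied more between mice and moved differently. Its level ranged from 41.8 to 470 CPM on chow (median 103), from 33.1 to 319 on WTD (median 81.4) and from 38.3 to 511 with atorvastatin (median 255). The groups overlapped, but 6 of 16 treated mice were above every WTD-fed mouse and 2 above every chow-fed mouse. The coefficient of variation was 89.3% on chow, 70.4% on WTD and 57.6% with atorvastatin, against 27.0%, 45.4% and 44.5% for Hamp. Hamp2 rose with atorvastatin by a log2 fold change of 1.50 ± 0.35 (SE, edgeR, adjusted p = 0.0024), a 2.82-fold increase with 14 of 16 mice above the WTD median. WTD against chow gave -0.72 ± 0.38 (adjusted p = 0.13) and treated mice against chow gave 0.78 ± 0.40 (adjusted p = 0.13), neither of which was called. The latter was called by limma-voom with quality weights (1.11, adjusted p = 0.0095). The former was -0.35 without Chow32w replicate 2, -0.97 without WTD32w replicate 15 (adjusted p = 0.025) and -0.31 without the 8 libraries, and was called in none of these. The rise was not called without the 8 libraries lacking weak genes (1.39, adjusted p = 0.017).

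The share of Hamp2 in the counts of both genes does not depend on library scaling and was compared after the values had been seen. It was 17.4 ± 10.7% on chow (SD, n = 10), 29.9 ± 7.02% on WTD and 38.4 ± 10.6% with atorvastatin (n = 16 each). The single mice ranged from 7.66% to 43.1%, from 17.8% to 46.7% and from 17.6% to 60.0% in the same order, so the groups overlapped. The log2 ratio of Hamp2 to Hamp on WTD exceeded that on chow by 1.17 ± 0.32 (SE, permutation test, two-sided, adjusted p = 0.0012 over 6 ratio comparisons), and all 16 WTD-fed mice were above the chow median. It was higher with atorvastatin than on WTD by 0.54 ± 0.21 (permutation test, adjusted p = 0.023), with 13 of 16 mice above the WTD median. Both genes lie in 1 stretch of chromosome 7 and are near-identical, and the authors' counting left out read pairs that aligned to more than 1 place, so their split is uncertain. With both counted as 1 gene, the level fell on WTD by 1.42 on the log2 scale (edgeR, adjusted p = 1.3e-05), rose with atorvastatin by 1.10 (adjusted p = 0.00083) and was -0.31 against chow in treated mice (adjusted p = 0.37), a call that was lost.

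**Figure D2:**
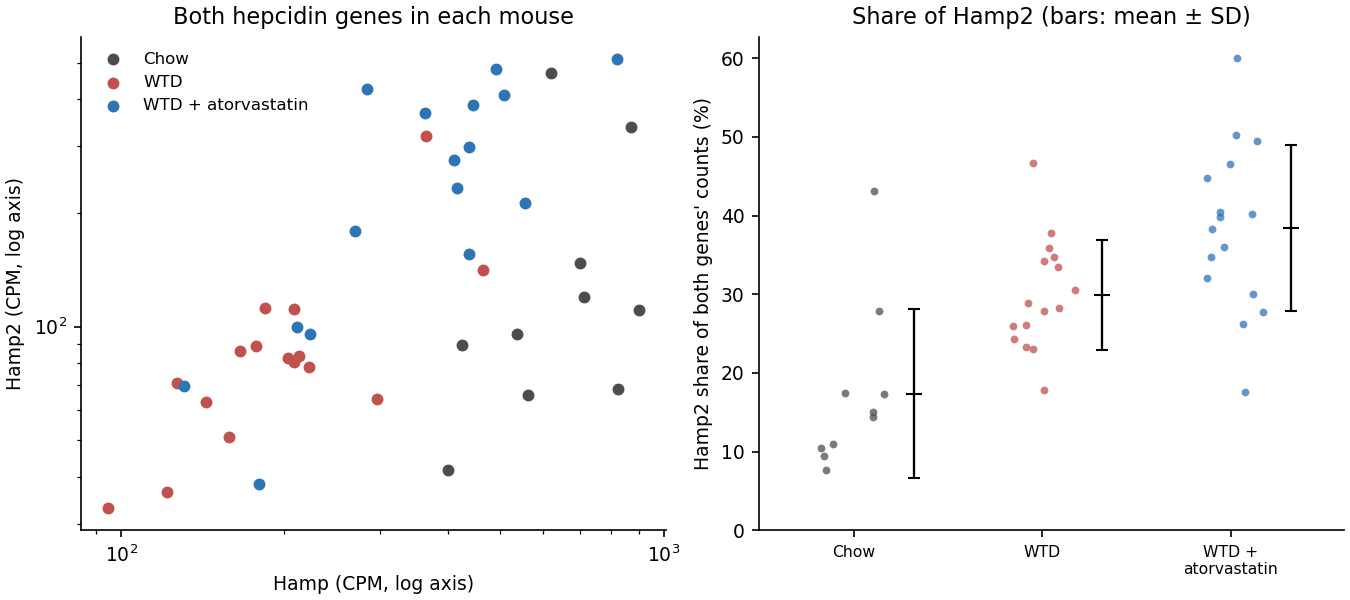
Left, Hamp against Hamp2 in CPM (both axes logarithmic), 1 point per mouse, coloured by group. Right, the share of Hamp2 in the counts of both genes in percent, with mean ± SD as bars, which was 17.4% on chow, 29.9% on WTD and 38.4% with atorvastatin.

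Within a group, Hamp was compared with 13 other genes in 39 relations, of which 2 passed an adjusted p of 0.05 by Pearson's r. Hamp and Hamp2 rose and fell together in WTD-fed mice (r = 0.77, permutation p = 0.00064, adjusted p = 0.012, Spearman's rho = 0.65 with permutation p = 0.0079, adjusted p = 0.10, n = 16). They also did so in treated mice (r = 0.81, permutation p = 0.00012, adjusted p = 0.0047, rho = 0.72 with permutation p = 0.0025, adjusted p = 0.096, n = 16). Without the 2 mice farthest from the Hamp median, r was 0.71 and 0.68 and the adjusted permutation p was 0.14 in both groups. On chow, r was 0.45 (permutation p = 0.19, adjusted p = 0.47, n = 10). The unadjusted permutation p was then 0.0058 and 0.0072, and genes that can share reads are not independent measures.

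For Id1, a BMP target gene, r with Hamp was 0.65 on WTD (permutation p = 0.0065, adjusted p = 0.085, rho = 0.66 with adjusted p = 0.10) and 0.60 with atorvastatin (permutation p = 0.015, adjusted p = 0.11, rho = 0.56 with adjusted p = 0.17). Socs3, a STAT3 target, had r of -0.53 on WTD (permutation p = 0.034, adjusted p = 0.19, rho = -0.59 with adjusted p = 0.14) and 0.61 with atorvastatin (permutation p = 0.012, adjusted p = 0.11, rho = 0.62 with adjusted p = 0.11). Without the 2 mice farthest from the Hamp median, r of Socs3 was -0.60 on WTD and 0.36 with atorvastatin. For Id1 it was then 0.62 and 0.53. Neither gene passed the correction in any group, and the difference between the groups was not tested.

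The tested genes most like Hamp over the 42 mice, after subtraction of the group means from log2 CPM, were Apoa5 (Pearson r = 0.73), Sds (0.72), Amdhd1 (0.72), Hamp2 (0.71) and Hsd11b1 (0.69). Apoa5 encodes an apolipoprotein, Sds serine dehydratase, Amdhd1 an enzyme of histidine breakdown and Hsd11b1 the enzyme that regenerates active glucocorticoid. These values describe the libraries, which also share depth and composition, and carry no test.

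Tfr2, transferrin receptor 2, a hepatocyte sensor of transferrin-bound iron (ENSMUSG00000029716, chr5:137569840-137587481), fell on WTD, where every mouse was below every chow-fed mouse, and rose with atorvastatin. It ranged from 531 to 668 CPM on chow (median 572), from 216 to 406 on WTD (median 289) and from 274 to 473 with atorvastatin (median 417). No WTD-fed and no treated mouse reached the lowest chow-fed mouse, and 9 of 16 treated mice were above every WTD-fed mouse. Mean levels were 578 ± 41.0, 301 ± 45.0 and 394 ± 59.0 CPM in the same order (SD). The log2 fold change was -0.94 ± 0.08 on WTD (SE, edgeR, adjusted p = 2.6e-14), 0.39 ± 0.07 for atorvastatin against WTD (adjusted p = 0.00015) and -0.56 ± 0.08 for treated mice against chow (adjusted p = 1.7e-07). All 3 calls held in the 10 alternative fits, the one without the 8 libraries included, and in all 42 fits that left out 1 mouse.

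Tfrc, transferrin receptor 1, which takes up transferrin iron in most cells (ENSMUSG00000022797, chr16:32608920-32632794), passed the test in no comparison. It ranged from 15.1 to 29.8 CPM on chow (median 20.7), from 11.8 to 40.4 on WTD (median 20.7) and from 11.1 to 30.1 with atorvastatin (median 17.3). The groups overlapped throughout. The log2 fold change was 0.05 on WTD (95% interval -0.29 to 0.38, edgeR, adjusted p = 0.85), -0.32 for atorvastatin against WTD (-0.61 to -0.02, adjusted p = 0.18) and -0.27 for treated mice against chow (-0.60 to 0.06, adjusted p = 0.23). The tested genes most like Tfrc within groups were Hsph1, a heat shock protein (r = 0.68), Tuba1c, a tubulin (0.67), Rrm2, a ribonucleotide reductase subunit (0.66), Ddc (0.66) and Mki67, a marker of dividing cells (0.65).

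Trf, which encodes the plasma iron carrier transferrin (ENSMUSG00000032554, chr9:103204001-103230444), had 9 counts in all 42 libraries together, with counts in 3 libraries. Transferrin is known as an abundant hepatocyte transcript, so this is no measure of its level. The annotated gene Gm20425 covers 99.5% of the span of Trf on the same strand and 63.5% of its exonic length, and itself had 0 counts. Read pairs that overlap more than 1 gene are set aside as ambiguous by such counting, and the ambiguous pairs made up 5.95% of all pairs on average. The overlap is that of GENCODE vM21, and the study counted with vM19, which was not used here. No level and no fold change are given for Trf.

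Slc40a1, ferroportin, the only known cellular iron exporter (ENSMUSG00000025993, chr1:45908068-45926523), rose on WTD and stayed high with atorvastatin. It ranged from 80.4 to 145 CPM on chow (median 116), from 121 to 211 on WTD (median 154) and from 147 to 214 with atorvastatin (median 180). Of the WTD-fed mice, 10 of 16 were above every chow-fed mouse, and all 16 treated mice were. Mean levels were 117 ± 19.4, 159 ± 25.2 and 182 ± 23.1 CPM (SD). The log2 fold change was 0.44 ± 0.09 on WTD (SE, edgeR, adjusted p = 3.0e-05) and 0.64 ± 0.09 for treated mice against chow (adjusted p = 4.9e-08). Atorvastatin against WTD gave 0.20 ± 0.08 (adjusted p = 0.077), which limma-voom with quality weights called (0.24, adjusted p = 0.00095).

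Ferroportin in the liver is known to be high in Kupffer cells, the macrophages that recycle red cell iron. The gene most like it within groups was Slc11a1, a metal transporter of phagosomes (r = 0.64), with r of 0.93 on chow, 0.51 on WTD and 0.41 with atorvastatin. It was followed by Arhgap17 (0.61), Hdc (0.61), Setd1b (0.60) and Agap3 (0.60). Slc11a1 had mean levels of 11.1 CPM on chow, 50.0 on WTD and 43.5 with atorvastatin.

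Fth1, the ferritin heavy chain with ferroxidase activity (ENSMUSG00000024661, chr19:9980598-9985098), was lower with atorvastatin. It ranged from 1480 to 2110 CPM on chow (median 1712), from 1488 to 2058 on WTD (median 1718) and from 1264 to 1823 with atorvastatin (median 1492). Of the treated mice, 14 of 16 were below the WTD median and 7 were below every WTD-fed mouse. Fth1 fell with atorvastatin against WTD by 0.22 on the log2 scale (SE 0.06, edgeR, adjusted p = 0.0059) and was lower than on chow by -0.24 ± 0.06 (adjusted p = 0.0026). WTD against chow gave -0.02 (95% interval -0.15 to 0.11, adjusted p = 0.82). Without the 8 libraries lacking weak genes both calls were lost (-0.19, adjusted p = 0.033, and -0.18, adjusted p = 0.052). The call against WTD was also lost without WTD32w replicate 9, 10, 11 or 14 or WTD&Atorvastatin32w replicate 5, 6, 11, 12, 14 or 16 (adjusted p up to 0.013), and the call against chow without Chow32w replicate 2 (adjusted p = 0.011).

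Ftl1, the ferritin light chain (ENSMUSG00000050708, chr7:45457944-45459884), was called in no comparison. Its level was 2451 ± 278 CPM on chow, 2208 ± 254 on WTD and 2179 ± 304 with atorvastatin (SD), with single mice from 1717 to 2990 CPM. The log2 fold change was -0.15 on WTD (95% interval -0.30 to -0.0020, edgeR, adjusted p = 0.10) and -0.02 for atorvastatin against WTD (-0.15 to 0.11, adjusted p = 0.92). Its near-identical relative Ftl1-ps1 held 7533 counts in all libraries, against 2034972 of Ftl1, and Ftl1-ps2 held 165.

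The share of Fth1 in the counts of both ferritin genes, also compared after the values had been seen, was 41.7 ± 3.22% on chow, 43.9 ± 1.62% on WTD and 40.6 ± 2.03% with atorvastatin (SD). The log2 ratio of Fth1 to Ftl1 was lower with atorvastatin than on WTD by -0.20 ± 0.04 (SE, permutation test, two-sided, p = 2e-05, the smallest that these permutations can give, adjusted p = 0.00012), with all 16 treated mice at or below the WTD median. On WTD it exceeded the chow value by 0.13 ± 0.06 (permutation test, adjusted p = 0.036), and treated mice against chow gave -0.06 ± 0.07 (adjusted p = 0.30). Within a library, the heavy chain thus made up a smaller part of ferritin mRNA with atorvastatin, and this held without the 8 libraries (-0.20, permutation test, adjusted p = 0.00036).

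Bmp6, the endothelial ligand that drives Hamp when liver iron is high (ENSMUSG00000039004, chr13:38345107-38500302), was weakly expressed and was called in no comparison. It ranged from 0.859 to 15.7 CPM on chow (median 9.99), from 3.35 to 17.1 on WTD (median 7.53) and from 2.24 to 11.9 with atorvastatin (median 7.41). The groups overlapped. The log2 fold change was -0.31 on WTD (95% interval -0.79 to 0.17, edgeR, adjusted p = 0.32), -0.23 for atorvastatin against WTD (-0.65 to 0.20, adjusted p = 0.59) and -0.54 for treated mice against chow (-1.01 to -0.06, adjusted p = 0.084). Without Chow32w replicate 5, the lowest mouse, the last became -0.67 and was called (adjusted p = 0.0070). Without all 8 libraries lacking weak genes, that one included, it was -0.60 and was not called (edgeR, adjusted p = 0.012).

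Hmox1, heme oxygenase 1, which breaks heme down to biliverdin, carbon monoxide and iron (ENSMUSG00000005413, chr8:75093621-75100589), rose on WTD, where every mouse was above every chow-fed mouse, and did not pass the test for a change with atorvastatin. It ranged from 14.7 to 50.1 CPM on chow (median 25.3), from 58.2 to 176 on WTD (median 70.5) and from 58.3 to 99.96 with atorvastatin (median 72.2). All 32 WTD-fed mice, treated or not, were above every chow-fed mouse. The log2 fold change was 1.56 ± 0.17 on WTD (SE, edgeR, adjusted p = 2.6e-10), a 2.94-fold increase, and 1.39 ± 0.17 for treated mice against chow (adjusted p = 8.3e-09). Atorvastatin against WTD gave -0.17 (95% interval -0.44 to 0.11, adjusted p = 0.52). The genes most like Hmox1 within groups were Tmem104 (r = 0.69), the immune receptor Pirb (0.68), Tgfb1, a cytokine of fibrosis (0.68), the lysosomal protease Lgmn (0.66) and the TNF receptor Tnfrsf1b (0.66).

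Groups that did not overlap were seen on WTD against chow for 2 of the 9 genes, Tfr2 and Hmox1, where 5.83% of all tested genes did not overlap (3.40% higher, as Hmox1, and 2.43% lower, as Tfr2). For treated mice against chow there were 3, Tfr2, Slc40a1 and Hmox1, where 4.37% of all tested genes did not overlap (2.88% higher, as Slc40a1 and Hmox1, and 1.50% lower, as Tfr2). Between treated and untreated WTD-fed mice none of the 9 was without overlap, where 0.00642% of all tested genes were.

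**Figure D3:**
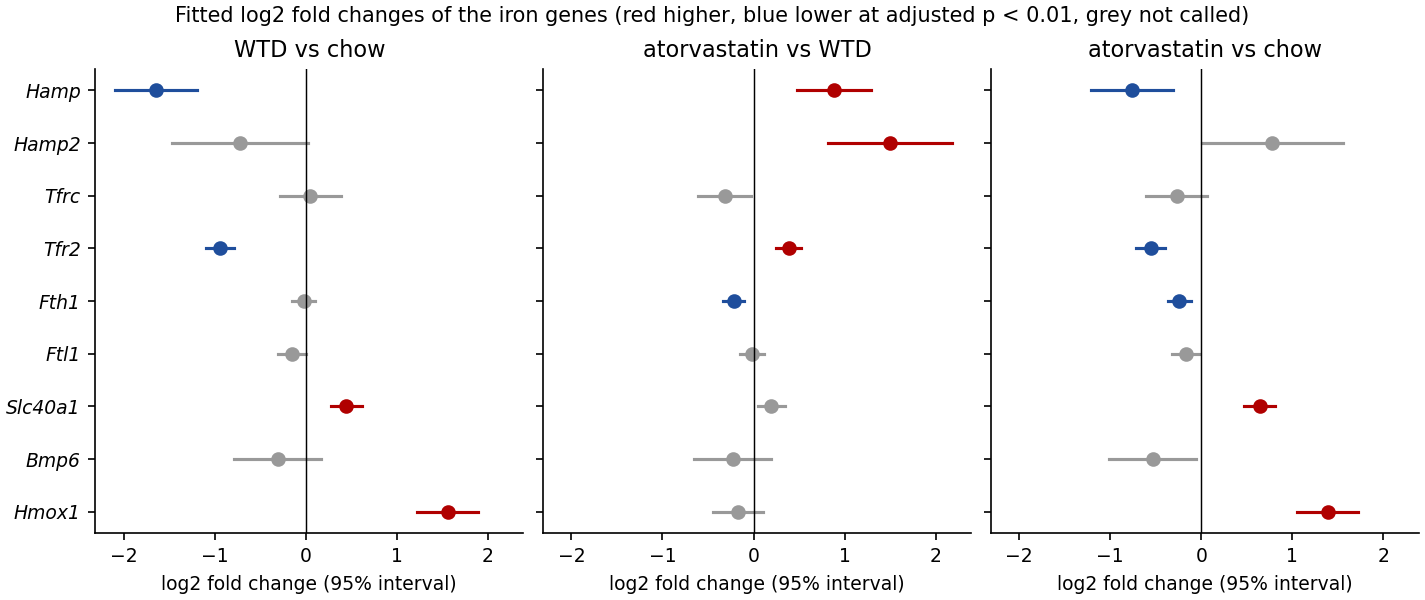
Fitted log2 fold changes (x axis) with 95% intervals of the 9 tested iron genes in the 3 comparisons. Red and blue mark genes higher and lower at an adjusted p under 0.01, and grey marks genes not called. Hamp and Tfr2 lie below 0 on WTD and above 0 with atorvastatin, while Hmox1 lies at 1.56 and -0.17.

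Per kilobase of exonic length, Ftl1 and Hamp were the most abundant members on chow, at 1829 ± 207 and 1599 ± 432 CPM per kb (SD), which overlapped within their spread. They were followed by Fth1 (505 ± 55.0), Hamp2 (265 ± 237), Tfr2 (133 ± 9.47), Hmox1 (16.0 ± 6.11), Slc40a1 (13.0 ± 2.15), Tfrc (3.45 ± 0.79) and Bmp6 (2.61 ± 1.03), all in CPM per kb. Among these neighbours, the mean ± SD ranges of Fth1 and Hamp2, of Hamp2 and Tfr2, of Hmox1 and Slc40a1 and of Tfrc and Bmp6 overlapped. On WTD the level of Hamp (511 ± 232 CPM per kb) came to that of Fth1 (497 ± 44.8). With atorvastatin Hamp was at 943 ± 420 CPM per kb, and Hamp2 (455 ± 262) overlapped with Fth1 (427 ± 42.7). The lengths join all annotated exons of a gene, so a gene with long unused exons is placed too low.

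Among 15 tested genes that control hepcidin, 1 rose and 5 fell on WTD, where 17.5% and 16.0% of all tested genes did, and their median on the log2 scale was -0.0042, beside 0.027 for all tested genes. Tmprss6, a protease that cleaves hemojuvelin and holds hepcidin down, fell from 570 to 380 CPM (-0.59 ± 0.08, SE, edgeR, adjusted p = 4.6e-09). Hjv, hemojuvelin, the BMP co-receptor needed for hepcidin expression, fell from 182 to 129 CPM (-0.49 ± 0.09, adjusted p = 5.6e-06). Fgl1, a hepatocyte protein known to bind BMP ligands, fell from 765 to 459 CPM (-0.74 ± 0.12, adjusted p = 1.5e-06). An inhibitor and an activator of the same signal thus fell side by side. DESeq2 called 4 of the 15 higher and 5 lower, and limma-voom 2 higher and 6 lower.

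With atorvastatin 4 of these 15 rose and 0 fell, where 4.84% and 2.26% of all tested genes did (median 0.11 against 0.0016 over all genes). They were Tmprss6 (0.37 ± 0.07, SE, edgeR, adjusted p = 0.00012), Furin, a protease that processes prohepcidin (0.38 ± 0.08, adjusted p = 0.00069), the endothelial ligand Bmp2 (0.50 ± 0.12, adjusted p = 0.0039) and Hjv (0.30 ± 0.08, adjusted p = 0.0064). Against chow, treated mice had 3 genes higher and 2 lower, where 14.2% and 10.7% of all tested genes were. Fgl1 (-0.84 ± 0.12), Furin (0.35 ± 0.09) and Smad1 (0.55 ± 0.15) led them. Without the 8 libraries 1 was higher and 2 were lower against chow, and Smad1 was not called (0.28, edgeR, adjusted p = 0.028). Without the 8 libraries lacking weak genes, 2 of the 15 rose with atorvastatin and 0 fell, and Bmp2 (0.37, edgeR, adjusted p = 0.017) and Hjv (0.21, adjusted p = 0.081) were not called. The erythroid hormone Erfe held 29 counts in all libraries and was not tested.

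Of 7 target genes of the BMP signal, 1 was called on WTD, where 33.5% of all tested genes were. This was Smad7, an inhibitory SMAD, which rose by 0.52 ± 0.16 (SE, edgeR, adjusted p = 0.0057). The next in order of p were Smad6 (0.24 ± 0.16) and Atoh8 (-0.20 ± 0.18), neither called. None of the 7 was called with atorvastatin by edgeR, where 7.10% of all tested genes were, nor by DESeq2 or limma-voom. With so few genes, a count of 0 lies near that share. Of the 7, 0 had an unadjusted p under 0.05, and Id1 gave 0.31 ± 0.18, Atoh8 0.24 ± 0.16 and Id3 0.06 ± 0.10. Against chow, only Smad7 of the 7 was called, higher in treated mice (0.57 ± 0.16), where 14.2% of all tested genes were higher. Id1 (0.46 ± 0.21) and Smad6 (0.27 ± 0.16) were not called. The list median was 0.0094 on WTD and 0.063 with atorvastatin. The call of Smad7 on WTD was not made by limma-voom or without the 8 libraries, where 0 of 7 were called.

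In the cytokine and endoplasmic reticulum arm, 3 of 11 tested genes rose and 3 fell on WTD, where 17.5% and 16.0% of all tested genes did. Inhbb, which encodes the activin B subunit, rose from 1.31 to 6.81 CPM (2.36 ± 0.35, SE, edgeR, adjusted p = 1.9e-07). Creb3l3, a transcription factor of hepatocytes that can act on Hamp, fell from 353 to 210 CPM (-0.75 ± 0.11, adjusted p = 1.2e-07), and Jak2 rose by 0.57 ± 0.12. None of the 11 was called with atorvastatin by edgeR, where 7.10% of all tested genes were, or by DESeq2. With so few genes, a count of 0 lies near that share. By limma-voom 2 were called higher, and 2 had an unadjusted p under 0.05 by edgeR. Il6ra (0.25 ± 0.11), Cebpa (0.16 ± 0.07) and Tyk2 (0.14 ± 0.09) came first by p. In treated mice against chow 3 were higher and 1 lower, where 14.2% and 10.7% of all tested genes were. Creb3l3 was at -0.71 ± 0.11, Inhbb at 2.11 ± 0.35 and Jak2 at 0.66 ± 0.12. Il6 itself held 59 counts in all libraries and was not tested.

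**Figure D4:**
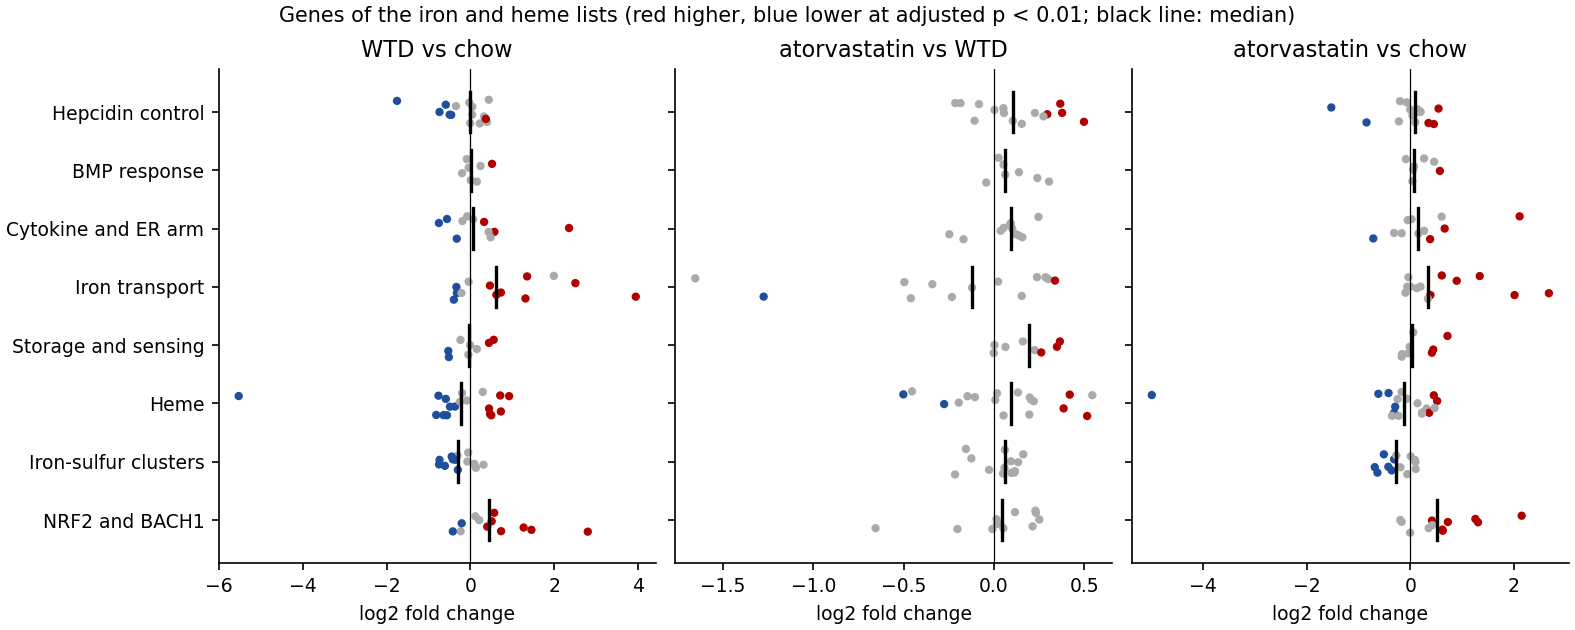
Log2 fold changes (x axis, scaled separately per panel) of the tested genes of 8 iron and heme lists in the 3 comparisons, 1 point per gene. Red and blue mark genes higher and lower at an adjusted p under 0.01, grey genes not called, and black lines the list medians, which on WTD run from -0.31 for iron-sulfur clusters to 0.62 for iron transport.

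Of 13 tested genes of iron transport, 7 rose and 3 fell on WTD, where 17.5% and 16.0% of all tested genes did, with a median of 0.62. Cp, ceruloplasmin, the plasma ferroxidase that works with ferroportin, rose from 1145 to 1897 CPM with no overlap between the groups (0.73 ± 0.07, SE, edgeR, adjusted p = 5.2e-12). Lcn2, lipocalin 2, which binds bacterial siderophores, rose from 23.1 to 356 CPM (3.95 ± 0.39, adjusted p = 4.7e-11), and the metalloreductase Steap4 from 125 to 319 CPM (1.36 ± 0.16). With atorvastatin 1 rose and 1 fell, where 4.84% and 2.26% of all tested genes did. The gene that rose was Slc25a37, the mitochondrial iron importer mitoferrin 1 (0.34 ± 0.08, edgeR, adjusted p = 0.0024). The one that fell was Lcn2 (-1.27 ± 0.29, edgeR, adjusted p = 0.0018). Steap3 followed at -0.34 ± 0.10, which was not called. Without the 8 libraries lacking weak genes, 2 rose and 0 fell, and the fall of Lcn2 was not called (-1.09, adjusted p = 0.015). On all libraries DESeq2 called 1 higher and 3 lower and limma-voom 5 higher and 4 lower. Against chow, 6 were higher and 0 lower in treated mice (5 and 0 without the 8 libraries), where 14.2% and 10.7% of all tested genes were. Cp (0.61 ± 0.07), Steap2 (1.34 ± 0.17) and Lcn2 (2.67 ± 0.37) led them.

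Among 8 tested genes of iron storage and sensing, 2 rose and 2 fell on WTD, where 17.5% and 16.0% of all tested genes did. Aco1 and Ireb2, the iron regulatory proteins that bind the elements shown above, fell by 0.51 and 0.53 on the log2 scale (SE 0.08 and 0.11, edgeR, adjusted p = 5.4e-07 and 0.00012). Both rose with atorvastatin, by 0.35 ± 0.07 and 0.37 ± 0.10 (adjusted p = 0.00053 and 0.0094). Ncoa4, the receptor for breakdown of ferritin by autophagy, rose on WTD from 52.9 to 77.9 CPM (0.56 ± 0.10) and was at 87.0 with atorvastatin (0.72 ± 0.10 against chow). Epas1, hypoxia-inducible factor 2 alpha, rose with atorvastatin (0.26 ± 0.07, adjusted p = 0.0081), and against chow Fbxl5, the sensor that degrades iron regulatory protein 2, was higher (0.44 ± 0.10). The list median was -0.03 on WTD and 0.19 with atorvastatin. With atorvastatin 3 of the 8 genes rose and 0 fell by edgeR, where 4.84% and 2.26% of all tested genes did. On all libraries DESeq2 called 1 of them and limma-voom 4. Without the 8 libraries the counts on WTD were again 2 and 2, while none of the 8 genes was called with atorvastatin.

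The heme list held 18 tested genes, of which 6 rose and 8 fell on WTD, where 17.5% and 16.0% of all tested genes did. Among the 8 that fell were the heme synthesis enzymes Alad, Uros, Urod, Cpox and Ppox, while the synthesis enzymes Alas1 (-0.20, edgeR, adjusted p = 0.48), Alas2 (0.30, adjusted p = 0.084) and Fech (-0.25, adjusted p = 0.011) were not called. Uros was not called either without the 8 libraries (-0.31, edgeR, adjusted p = 0.019). Alad went from 230 to 131 CPM without overlap (-0.81 ± 0.08, SE, edgeR, adjusted p = 6.9e-12). Hp, haptoglobin, which binds free hemoglobin, rose from 4240 to 7023 CPM (0.73 ± 0.09, adjusted p = 6.3e-09), and Hmox2, the constitutive heme oxygenase, rose by 0.47 ± 0.07. Cd163, the macrophage receptor for haptoglobin and hemoglobin, went from 10.2 CPM on chow to 0.21 on WTD (-5.53 ± 0.92, adjusted p = 2.7e-06). With atorvastatin 3 rose and 2 fell (2 and 2 without the 8 libraries), where 4.84% and 2.26% of all tested genes did. Hp fell by 0.50 on the log2 scale (SE 0.08, adjusted p = 3.3e-05), while Fech and Ppox, the last 2 enzymes of heme synthesis, rose by 0.39 ± 0.07 and 0.42 ± 0.09. Against chow 3 were higher and 5 lower in treated mice (4 and 4 without the 8 libraries), where 14.2% and 10.7% of all tested genes were. Alad (-0.62 ± 0.08), Cd163 (-4.98 ± 0.91) and Hmox2 (0.37 ± 0.07) led them.

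Among 13 genes of iron-sulfur cluster assembly, 0 rose and 7 fell on WTD, where 17.5% and 16.0% of all tested genes did, with a median of -0.31. They were led by Fdx1, ferredoxin (-0.75 ± 0.09, SE, edgeR, adjusted p = 1.4e-09, no overlap), Bola3 (-0.74 ± 0.12) and Glrx5 (-0.45 ± 0.09). None was called with atorvastatin against WTD by edgeR, where 7.10% of all tested genes were, nor by DESeq2 or limma-voom (median 0.061). With so few genes, a count of 0 lies near that share. Of the 13, 1 had an unadjusted p under 0.05, and Hspa9 (0.16 ± 0.06), Iscu (-0.12 ± 0.07) and Glrx5 (0.13 ± 0.08) came first by p. In treated mice against chow 6 were lower and 0 higher, where 10.7% and 14.2% of all tested genes were. Fdx1 was at -0.63 ± 0.09, Bola3 at -0.68 ± 0.12 and Iscu at -0.42 ± 0.08. Without the 8 libraries 6 were lower on WTD and 5 in treated mice against chow.

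Of 12 genes of the NRF2 and BACH1 axis, through which Hmox1 is controlled, 7 rose and 2 fell on WTD (median 0.46), where 17.5% and 16.0% of all tested genes did. The small MAF partners differed, with Maff (1.46 ± 0.25, SE, edgeR, adjusted p = 3.1e-06) and Mafk (0.73 ± 0.14) higher and Mafg lower (-0.42 ± 0.08). None of the 12 was called with atorvastatin by edgeR, where 7.10% of all tested genes were, or by DESeq2. With so few genes, a count of 0 lies near that share. By limma-voom 2 were called higher, and 3 had an unadjusted p under 0.05 by edgeR. Mafg (0.25 ± 0.07), Keap1 (0.23 ± 0.07) and Bach1 (0.23 ± 0.11) came first. Against chow 7 were higher and 0 lower in treated mice (5 and 1 without the 8 libraries), where 14.2% and 10.7% of all tested genes were. Txnrd1, thioredoxin reductase (0.63 ± 0.11), Mafk (0.72 ± 0.14) and Nfe2l2, which encodes NRF2 (0.42 ± 0.08), led them.

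Markers of several cell types, though not of all, also differed between the groups. The counts of called markers given below stand beside 17.5% of all tested genes called higher and 16.0% called lower on WTD. With atorvastatin against WTD these shares were 4.84% and 2.26%. All 8 hepatocyte markers fell on WTD (median log2 fold change -0.72), and 7 did without the 8 libraries. Their summed level ranged from 106041 to 157407 CPM on chow (median 121966), from 52943 to 105666 on WTD (median 67790) and from 62456 to 129244 with atorvastatin (median 106957). The highest WTD sum was that of replicate 15, with the next at 73171. Treated replicates 1, 2, 3 and 4 held the lowest treated sums (62456 to 77972 CPM). Not every mouse paired a low sum with low Hamp. Treated replicate 7 had the next lowest sum, 83478 CPM, with Hamp at 556 CPM. WTD32w replicate 14, the highest WTD-fed mouse in Hamp (465 CPM), had a sum of 72727 CPM, below that of replicate 15. Of the 8 hepatocyte markers, 4 rose with atorvastatin and 0 fell (median 0.28). Hamp and Tfr2, which hepatocytes express, fell on WTD by 1.64 and 0.94 beside these markers, with Ttr at -1.29, Asgr1 at -0.76 and Alb at -0.90 in the same fit. The part that the markers have in the changes of Hamp and Tfr2 was not tested.

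Kupffer cell and macrophage markers rose in 5 of 8 genes on WTD, with summed levels of 303 to 545 CPM on chow, 1200 to 2872 on WTD and 1072 to 1740 with atorvastatin. Cd5l, Csf1r and Cd68 led them, at 3.12, 1.73 and 2.56 on the log2 scale. Clec4f, a marker of resident Kupffer cells, was at 161, 191 and 294 CPM on chow, WTD and WTD with atorvastatin, and its rise with atorvastatin was called (0.62 ± 0.16, SE, edgeR, adjusted p = 0.0047), while Cd68 and Cd5l fell. Without the 8 libraries the rise of Clec4f was not called (0.51, edgeR, adjusted p = 0.042), and the falls of Cd68 and Cd5l were. Markers of lipid-associated macrophages rose in all 6 genes on WTD and fell in 4 with atorvastatin (2 without the 8 libraries), with sums of 130 to 327, 768 to 2491 and 687 to 1709 CPM. The median sums were 179, 2013 and 881 CPM, and the lowest WTD sum was that of replicate 15, with the next at 1333. Slc40a1 and Hmox1, known in macrophages, were higher in WTD-fed mice, treated or not, and the part of macrophages in their rise was not tested.

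Of 7 red cell and erythroid markers, 4 rose on WTD and 0 fell, and the summed level was 191 to 333 CPM on chow, 215 to 927 on WTD and 229 to 592 with atorvastatin. Those that rose were the hemoglobin genes Hbb-bs (0.97), Hba-a1 (0.78), Hbb-bt (1.06) and Hba-a2 (0.95), while Slc4a1 was at 0.40, 1.04 and 0.61 CPM in the 3 groups. With atorvastatin against WTD none was called by edgeR, DESeq2 or limma-voom, and 0 had an unadjusted p under 0.05. Sinusoidal endothelial markers, from the cells that make Bmp2 and Bmp6, rose in 1 and fell in 3 of 8 genes on WTD and rose in 2 with atorvastatin, with sums of 359 to 506, 269 to 486 and 340 to 504 CPM. Without the 8 libraries 2 of these markers rose and 2 fell on WTD, and 1 rose with atorvastatin. Of 6 stellate cell markers, Hhip fell on WTD and Reln rose with atorvastatin, but neither was called without the 8 libraries (edgeR, adjusted p = 0.011 for each), where Lrat was called higher on WTD. DESeq2 and limma-voom each called 1 stellate marker higher and 1 lower on WTD. Of 7 T and B cell markers none was called in any comparison by edgeR, with 0 to 45.6 CPM in sum. On WTD, 1 of the 7 had an unadjusted p under 0.05, and DESeq2 and limma-voom each called 1 higher.

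**Figure D5:**
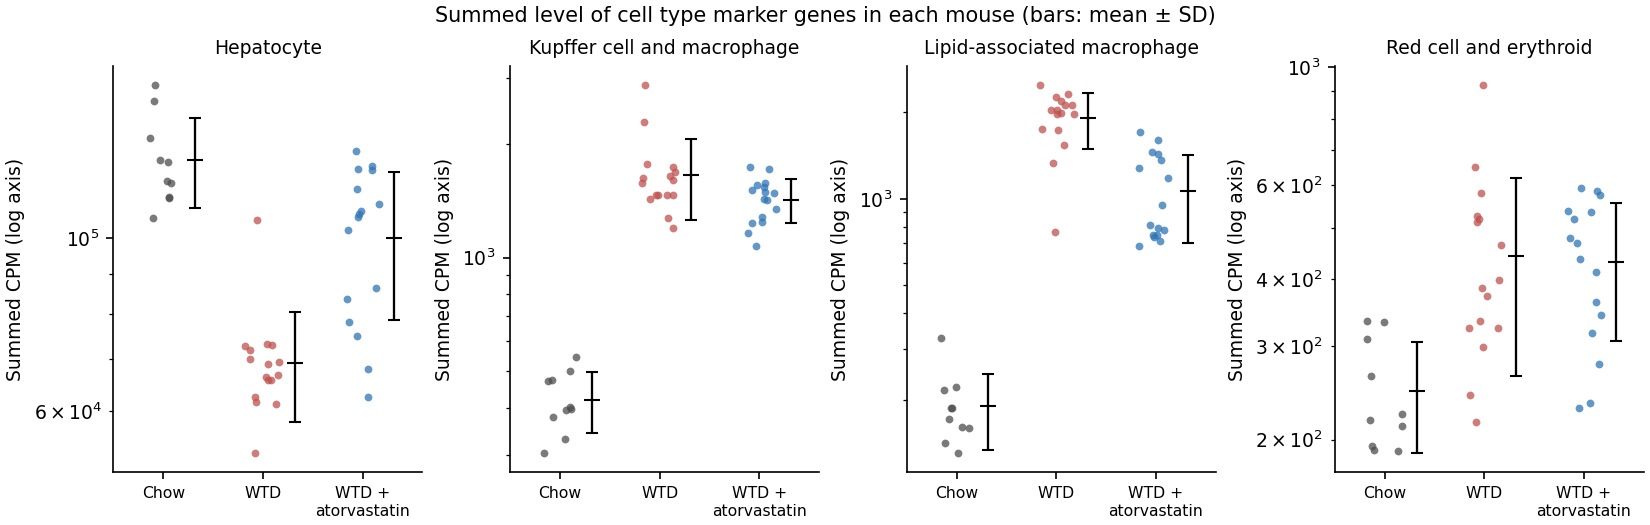
Summed CPM (y axis, logarithmic) of 4 lists of cell type markers in each mouse (points), with mean ± SD as bars. Macrophage sums of WTD-fed mice, treated or not, lie wholly above those of chow-fed mice, and hepatocyte sums of untreated WTD-fed mice lie between 52943 and 105666, below all chow-fed mice.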

How the data were processed

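Liver RNA of 42 mice was measured by strand-specific mRNA sequencing. The authors trimmed the reads, used STAR 2.5 for alignment to GRCm38 and HTSeq 0.6.1p1 for counting, by the submitters' processing notes, and deposited raw counts. The 42 tables of single mice were identical to the merged table. Gene symbols and exonic lengths came from GENCODE vM21, in which 54409 of 54446 identifiers were found. The study's counting used GENCODE vM19, so overlaps and exonic lengths, and with them levels per kb, may differ from those behind the counts. The summary lines of the counter, of which 2.28% of pairs on average lay in no gene and 4.68% aligned to more than 1 place, were left out of totals and tests. Libraries held 15661381 to 36224054 counts on genes, which sets the precision of weak genes.

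Genes were filtered with filterByExpr (minimum count 10, total 15), scaled by TMM and tested by robust quasi-likelihood (edgeR 4.0.16, R 4.3.3), with all 42 mice in 1 fit and no covariates. P values were adjusted by Benjamini-Hochberg over all tested genes and called under 0.01. Relations within groups used log2 CPM (prior count 2) and two-sided permutation tests with 100000 permutations, adjusted over 39 relations. Ratios of 2 genes used counts plus 0.5, with permutation tests adjusted over 6 comparisons. The methods were tested on simulated data.

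The text names all 10 members, of each list described the 3 genes ranked first by p, the 5 genes most like Hamp, Tfrc, Slc40a1 and Hmox1, and genes that can share reads with members. Other genes were named after their values were seen, namely Erfe, Il6, Hjv with atorvastatin, Alas1, Alas2, Uros, Urod, Cpox, Ppox and Cd163 on WTD, Fech on WTD, Hba-a2 and Slc4a1. The members and lists were chosen with earlier results of these data known. The alternatives were DESeq2 1.42.0, limma-voom (limma 3.58.1), RLE and upper-quartile scaling, 2 other filters, no robust estimation, only the 2 groups compared, 2 other thresholds, and fits without the 20 most abundant genes, without 8 libraries and without each mouse. Figures were made with matplotlib 3.10.9.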

Additional observations from a re-analysis of the deposited data

Results flagged for a closer look

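Among the chow-fed mice, the only group of a size for which single values were examined, 1 of 9 genes had a value far from the others. Bmp6 in Chow32w replicate 5 was at 0.859 CPM, from 17 counts, and its gap to the next mouse was 0.516 of the whole range, above the critical value of 0.466. Chance gives such a value in about 1 in 20 groups. The same library lacked a count for 46.4% of the genes at 1 to 2 CPM. Without it, Bmp6 in atorvastatin-treated mice against chow was at -0.67 on the log2 scale (edgeR, adjusted p = 0.0070), and with it at -0.54 (adjusted p = 0.084). Without all 8 libraries lacking weak genes, this one included, Bmp6 was at -0.60 and was not called (edgeR, adjusted p = 0.012).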

How the results depend on the processing

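On WTD against chow the same 4 genes were called under 11 of 12 alternatives and in all 42 fits without 1 mouse (lowest and highest count 4), and 2 (Hamp and Hmox1) when a log2 change of 1 or more was also required. For atorvastatin against WTD the count was 1 to 5 over 12 alternatives, being 1 (Hamp2) with that fold threshold, 1 (Tfr2) without the 8 libraries lacking weak genes and 3 to 4 without single mice. For treated mice against chow it was 1 to 6, being 1 (Hmox1) with the fold threshold, 3 (Hmox1, Slc40a1 and Tfr2) without the 8 libraries and 3 to 5 without single mice, with 3 without Chow32w replicate 2. With fewer samples the fits without the 8 libraries also have less power, and the cause of the lost calls was not tested.

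The sign of some changes that were not called turned. Tfrc on WTD was -0.0055 with limma-voom and -0.034 to 0.11 without single mice. Fth1 on WTD was 0.015 with DESeq2, 0.015 with RLE, 0.029 with at least 10 counts in every mouse, 0.017 without the 8 libraries and -0.046 to 0.011 without single mice. Ftl1 with atorvastatin against WTD was 0.018 with limma-voom, 0.0058 without the 8 libraries and -0.044 to 0.0071 without single mice. Without the 2 mice farthest from the Hamp median, r turned for Creb3l3 on chow (-0.40), Fth1 (-0.15), Ftl1 (-0.14) and Creb3l3 (-0.067) on WTD, and Ftl1 (0.019), Slc40a1 (0.12) and Smad7 (-0.11) with atorvastatin, none of which passed the correction.

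Counting Hamp and Hamp2 as 1 gene, and both ratios within libraries, were chosen after the data were seen. The ratios kept their side of the threshold without the 8 libraries. No paired analysis was possible because the replicate numbers follow accession order and name different mice. Levels near 1 CPM are limited by the libraries that lack weak genes, and Trf could not be measured.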
